A study of Mus musculus with 12 samples.

Results

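The genes described here encode 8 proteins of the dystrophin and sarcoglycan complex, measured in cultured mouse aortic smooth muscle cells at a low and a high glucose level. They were Dmd (dystrophin), Utrn (utrophin), Dtna (alpha-dystrobrevin), Dag1 (dystroglycan) and Sgca, Sgcb, Sgcd and Sgce (alpha-, beta-, delta- and epsilon-sarcoglycan). The members were named in advance of this description with their values at 4.5 and 0.3 g/l glucose in view, so their differences between those groups are given as a description, without a test. Each of the 8 symbols matched 1 probe set, out of 22180 genes with a probe set of 1 symbol.

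Both groups were primary smooth muscle cells of C57BL/6J mouse aorta at passage 3 to 4, grown in DMEM with 10% fetal calf serum. One group was kept in 0.3 g/l (1.7 mM) glucose and the other in 4.5 g/l (25 mM). How long is unclear, since the series text states 14 days and the samples' own labels 1 week. There were 6 arrays at each level, with replicate numbers 1 to 6. Whether a replicate was its own culture or animal is not stated, so the spread and every p-value describe these samples only and may be technical. No osmotic control entered the comparison.

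The complex spans the muscle cell membrane and ties the actin cytoskeleton to the extracellular matrix. Dystrophin, or its close relative utrophin, binds actin inside the cell and the membrane protein dystroglycan, whose heavily glycosylated outer subunit binds laminin; the sarcoglycans form a membrane subcomplex that steadies this link, and dystrobrevin carries signalling adaptors called syntrophins. Loss of dystrophin causes Duchenne muscular dystrophy, and loss of alpha-, beta- or delta-sarcoglycan causes limb-girdle dystrophies. Alpha-sarcoglycan is known mainly from striated muscle, and epsilon-sarcoglycan is its broadly expressed relative, which is common in smooth muscle.

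Array values here are log2 RMA values, in which a difference of 1 is a 2-fold difference; they show differences of 1 probe set between arrays, not the relative amounts of 2 genes. Over the arrays, 0.3 g/l replicate 4 stood apart from its group. Its highest correlation with an array of its own group was 0.987 and with a 4.5 g/l array 0.992, over 22180 genes. The values of the members and the counts of calls are therefore given with and without it. Marker levels were checked next. The 8 smooth muscle markers averaged 9.49 to 9.83 in the other 5 arrays of 0.3 g/l, 10.99 in 0.3 g/l replicate 4 and 11.39 to 11.64 in 4.5 g/l, and all 8 rose with glucose, including Myh11, Acta2 and Cnn1. The 10 endothelial markers were measured at unlike levels, and Kdr averaged only 5.52 in 0.3 g/l and 5.41 in 4.5 g/l. Cdh5, the endothelial cadherin, averaged 11.10 ± 0.39 in 0.3 g/l and 10.51 ± 0.51 in 4.5 g/l, and Pecam1 9.74 ± 0.08 and 9.49 ± 0.42 (SD, n = 6), far above 4.20, the limit of the dimmest 25% of genes. Of the 10 endothelial markers 1 fell, Emcn, and 9 did not pass; without 0.3 g/l replicate 4, 3 fell, with Cdh5 (log2 difference -0.75, limma adjusted p = 0.0153) and Tek (-0.66, limma adjusted p = 0.00308) added. In RNA of a whole culture, fewer cells of a type and less RNA per cell cannot be told apart. Of 12 striated muscle markers, 2 rose, the actin Acta1 and the actinin Actn3, and 10 did not pass; 3 rose without 0.3 g/l replicate 4, with the troponin Tnnt2 added. The log2 difference was 3.12 for Acta1 and 0.68 for the smooth muscle actin Acta2. Closely related actins can share signal on an array, and whether Acta1 and Acta2 did so here was not tested. Of 7 measured fibroblast markers 1 rose, Col14a1, and 6 did not pass, or 2 rose, with Pdgfra added, without that array. Of 8 macrophage and 4 measured Schwann cell and neural markers, 0 passed and 0 had an unadjusted p of under 0.05. Limma gave these calls with Benjamini-Hochberg adjustment over all genes. Of all genes, 7.01% rose and 8.52% fell, or 10.3% and 13.6% without 0.3 g/l replicate 4. Kdr, Emcn, Tek, Acta1, Actn3, Tnnt2, Col14a1 and Pdgfra were singled out after their values were seen.

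RefSeq's promoter table (build GRCm38.p6) held 8 start-site windows for 6 of the members, and 250 bases before each start were searched. Those of Dmd, which showed the largest difference, and of Sgcd and Sgcb, the sarcoglycans with the largest and the smallest difference, are printed as examples of these upstream regions. Capitals mark a CArG box, the site bound by serum response factor, or a GC box, GGGCGG on either strand. The upstream Dmd window is chrX:82948620-82948869 on the plus strand, the downstream one chrX:85048045-85048294 on the plus strand, that of Sgcd chr11:47379326-47379575 on the minus strand and that of Sgcb chr5:73647738-73647987 on the minus strand, each written 5′ to 3′.
Dmd upstream start: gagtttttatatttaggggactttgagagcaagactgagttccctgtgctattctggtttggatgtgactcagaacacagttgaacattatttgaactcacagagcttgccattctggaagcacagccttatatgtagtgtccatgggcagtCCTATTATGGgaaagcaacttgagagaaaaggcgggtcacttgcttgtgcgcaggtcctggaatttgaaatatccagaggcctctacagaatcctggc
Dmd downstream start: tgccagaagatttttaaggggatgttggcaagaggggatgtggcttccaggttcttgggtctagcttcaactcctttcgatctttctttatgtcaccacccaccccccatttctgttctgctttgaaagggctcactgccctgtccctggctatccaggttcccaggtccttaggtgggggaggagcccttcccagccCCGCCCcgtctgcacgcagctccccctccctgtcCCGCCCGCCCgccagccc
Sgcd start: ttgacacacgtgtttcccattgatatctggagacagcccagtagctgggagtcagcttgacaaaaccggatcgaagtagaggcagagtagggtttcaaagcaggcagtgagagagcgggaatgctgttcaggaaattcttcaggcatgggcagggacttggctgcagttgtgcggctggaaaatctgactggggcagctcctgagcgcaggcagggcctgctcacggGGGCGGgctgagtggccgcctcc
Sgcb start: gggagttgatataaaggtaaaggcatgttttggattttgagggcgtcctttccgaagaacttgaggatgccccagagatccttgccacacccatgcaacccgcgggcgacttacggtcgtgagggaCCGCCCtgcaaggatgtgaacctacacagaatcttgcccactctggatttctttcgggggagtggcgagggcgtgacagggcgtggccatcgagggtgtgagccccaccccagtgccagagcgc

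The upstream Dmd window held 1 CArG box, CCTATTATGG, which began 98 bases before the start, and no GC box. The downstream Dmd window held no CArG box and 3 GC boxes, and the windows of Sgcd and Sgcb held 1 GC box each and no CArG box. The windows of Dag1, Sgca and Utrn, which are not printed, held no CArG box either. Of 32851 windows of the same length in the table, 1.47% held a CArG box and 32.7% a GC box, both strands searched; no 2 different motifs overlapped in the windows of the members. E-boxes, CANNTG, were found 2 times in the upstream Dmd window, 2 times in that of Sgcd and not in that of Sgcb, and stood in 66.2% of all windows. TATAAA stood in 12.4% of all windows; it was found once in the upstream Dmd window, 245 bases before the start, and once in that of Sgcb, 241 bases before it. A match is a run of letters, not a measured binding site, and the windows need not be the starts used in these cells. The Dmd gene is known for several promoters that give full-length and short dystrophins; which of these isoforms its probe set reads is not given in the sources used here.

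**Figure D1:**
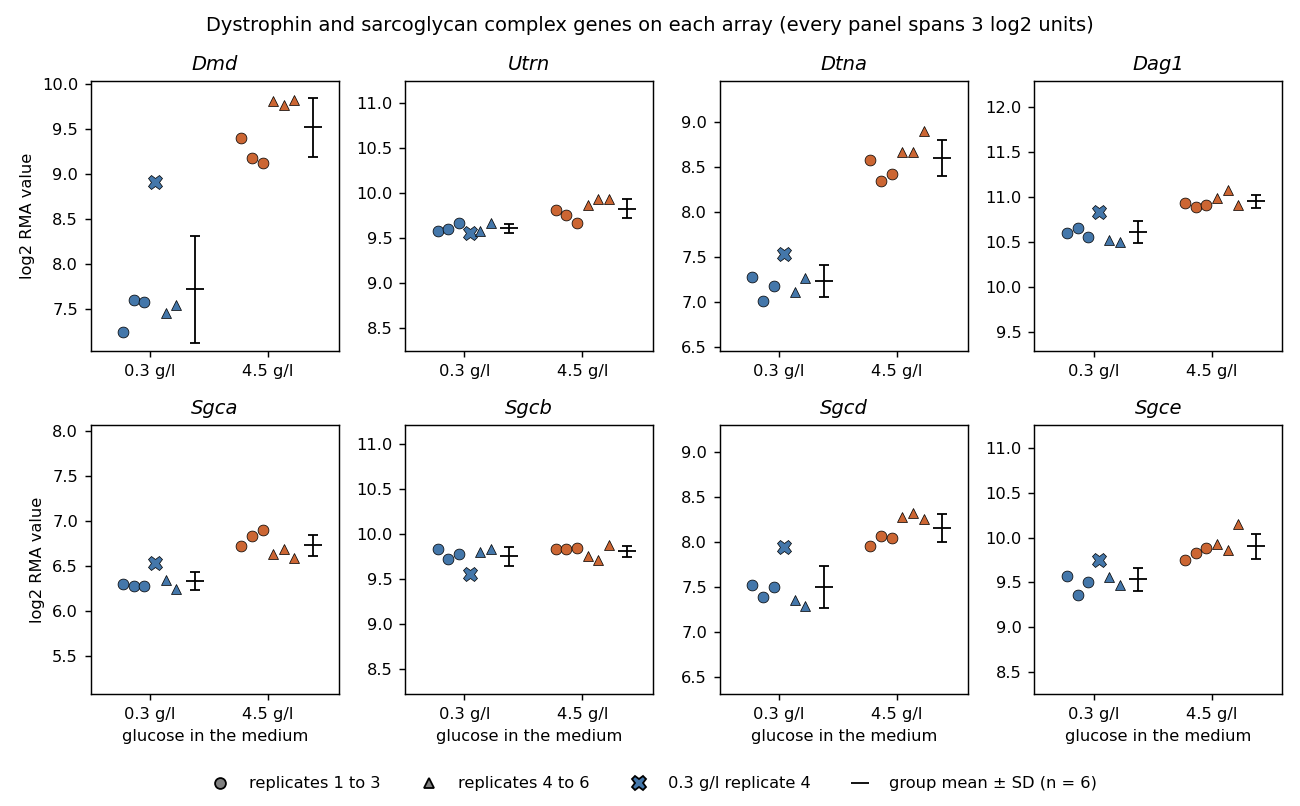
Log2 RMA value (vertical axis) of each member on each of the 12 arrays, by glucose level, with circles for replicates 1 to 3, triangles for replicates 4 to 6, a cross for 0.3 g/l replicate 4 and bars for group mean ± SD (n = 6). Dmd and Dtna stand furthest apart between the groups, with 0.3 g/l replicate 4 at 8.90 for Dmd, and the 2 groups lie level for Sgcb.

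Means of all 8 members were higher in 4.5 g/l, by 0.05 to 1.80 on the log2 scale, with a median of 0.38, where the median over all 22180 genes was -0.01. The groups did not overlap for 5 of the 8, Dmd, Dtna, Sgcd, Sgca and Dag1; over all genes 3.49% were higher without overlap. Without 0.3 g/l replicate 4 the count was 6, with Sgce added, against 7.87% of all genes, and the median was 0.42. As the members were chosen on this contrast, nothing is read from these counts. The means of 3 members, Dmd, Dtna and Sgcd, were at least 1.5-fold higher, which held for 2.05% of all genes.

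Dystrophin showed the largest difference. Dmd (probe set 17536078, Entrez gene 13405) had a lowest value of 7.24, a median of 7.55 and a highest of 8.90 in 0.3 g/l, and 9.12, 9.58 and 9.82 in 4.5 g/l. The groups did not overlap, but the highest 0.3 g/l array, replicate 4, lay only 0.22 below the lowest of 4.5 g/l, whereas the next highest lay at 7.60. The mean went from 7.72 ± 0.60 to 9.51 ± 0.32 (SD, n = 6), a difference of 1.80 or 3.47-fold. Without 0.3 g/l replicate 4 the lower mean was 7.48 ± 0.15 (n = 5) and the difference 2.03, or 4.10-fold.

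Utrophin, which is built like dystrophin and can stand in for it at the membrane, differed little. Utrn (probe set 17239268) ranged from 9.56 to 9.68 in 0.3 g/l, with a median of 9.59, and from 9.67 to 9.93 in 4.5 g/l, with a median of 9.84. Replicate 3 of 4.5 g/l lay within the range of 0.3 g/l, and the other 5 arrays of 4.5 g/l were above it. The difference of means was 0.22, or 1.16-fold, and 0.21 without 0.3 g/l replicate 4, which was the lowest array of its group here.

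Alpha-dystrobrevin had the widest gap between the groups with all 12 arrays; without 0.3 g/l replicate 4 that of Dmd was wider, 1.52 against 1.07. Dtna (probe set 17348902) had a lowest value of 7.01, a median of 7.22 and a highest of 7.54 in 0.3 g/l and 8.35, 8.63 and 8.90 in 4.5 g/l. All 6 arrays of 0.3 g/l, replicate 4 included, were thus at least 0.81 below the lowest of 4.5 g/l. The mean went from 7.23 ± 0.18 to 8.60 ± 0.20 (SD, n = 6), 2.58-fold, or 2.69-fold without 0.3 g/l replicate 4.

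Dystroglycan, the laminin receptor at the centre of the complex, differed by less, and its values were tight. Dag1 (probe set 17531168) ran from 10.49 to 10.83 in 0.3 g/l (median 10.57) and from 10.89 to 11.08 in 4.5 g/l (median 10.92). The groups were parted by 0.06, and by 0.23 without 0.3 g/l replicate 4, the highest of its group. The means were 10.61 ± 0.12 and 10.95 ± 0.07 (SD, n = 6), 1.27-fold apart.

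The 4 sarcoglycans did not differ alike. Sgcd, delta-sarcoglycan, which pairs with beta-sarcoglycan in the core of the subcomplex (probe set 17262156), had the largest difference of the 4. It ran from 7.29 to 7.94 in 0.3 g/l (median 7.45) and from 7.95 to 8.32 in 4.5 g/l (median 8.16). The highest 0.3 g/l array was again replicate 4, just 0.01 below the 4.5 g/l arrays, and the next lay at 7.52. Means of 7.50 ± 0.23 and 8.15 ± 0.15 (SD, n = 6) were 1.57-fold apart, and 1.67-fold without replicate 4 of 0.3 g/l.

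Sgca, the striated muscle sarcoglycan (probe set 17268107), ran from 6.24 to 6.53 in 0.3 g/l (median 6.29) and from 6.59 to 6.89 in 4.5 g/l (median 6.70), with no overlap. Means of 6.33 ± 0.10 and 6.72 ± 0.12 (SD, n = 6) were 1.32-fold apart. Its relative Sgce (probe set 17464588) ran from 9.36 to 9.75 in 0.3 g/l (median 9.53) and from 9.75 to 10.15 in 4.5 g/l (median 9.88). The groups of Sgce met at 0.3 g/l replicate 4, and without that array a gap of 0.18 parted them. The means were 9.53 ± 0.13 and 9.90 ± 0.14 (SD, n = 6), 1.29-fold apart.

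Sgcb was the member that differed least. This beta-sarcoglycan (probe set 17448840) ran from 9.56 to 9.84 in 0.3 g/l (median 9.79) and from 9.71 to 9.88 in 4.5 g/l (median 9.84). The 2 ranges overlapped, and arrays of both groups stood among the highest. The means, 9.76 ± 0.10 and 9.81 ± 0.06 (SD, n = 6), were 0.05 apart, less than either SD, and 0.01 apart without 0.3 g/l replicate 4.

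**Figure D2:**
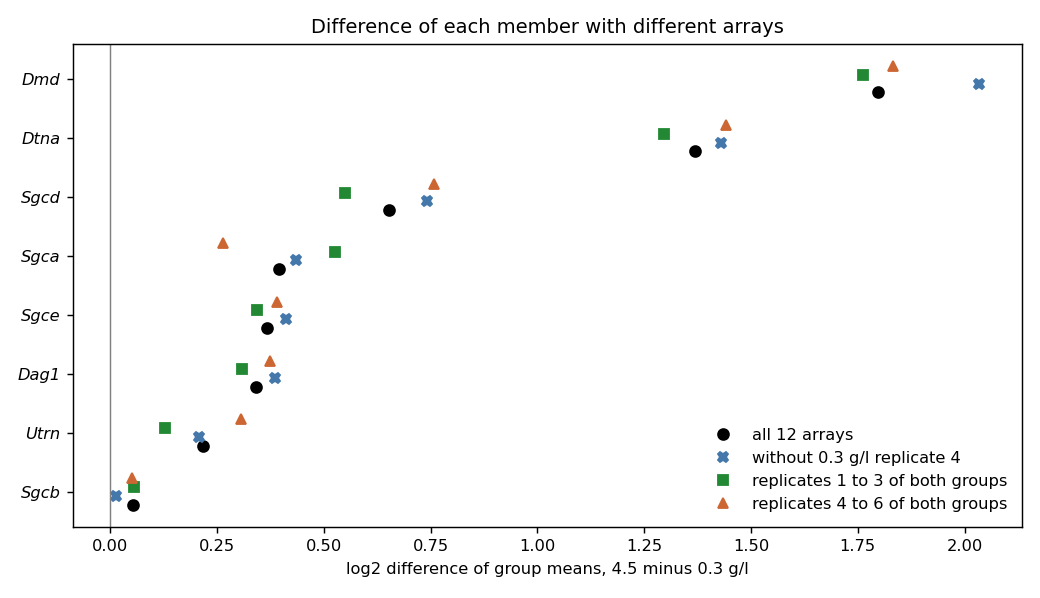
Difference of group means (horizontal axis, log2, 4.5 minus 0.3 g/l) for each member over all 12 arrays, with 0.3 g/l replicate 4 left out, and for replicates 1 to 3 or 4 to 6 alone. Dmd lies between 1.76 and 2.03 in all 4 and Sgcb between 0.01 and 0.06, while Sgca goes from 0.53 to 0.26 and Utrn from 0.13 to 0.31 between the replicate ranges.

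In 0.3 g/l replicate 4, 6 members had the highest value of their group, and Utrn and Sgcb had the lowest. For those 6, this array lay part of the way from the mean of its other 5 arrays to the mean of 4.5 g/l. The distance covered was 70.0% for Dmd, 71.6% for Sgcd, 69.2% for Dag1, 63.3% for Sgce, 54.8% for Sgca and 25.5% for Dtna. The share was smallest for Dtna, whose difference between the glucose levels was large. On the log2 scale this array lay 0.36 above the mean of the other 5 for Dtna. That was less than for Dmd (1.42) and Sgcd (0.53) but more than for Dag1 (0.27), Sgce (0.26) and Sgca (0.24). On the same array the smooth muscle marker mean was the highest of its group and the endothelial marker mean, 7.40, the lowest, against 7.98 to 8.04 in the other 5; their part in the values of the members was not tested.

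Within 4.5 g/l, replicates 4 to 6 differed from replicates 1 to 3 in several members. The labels do not call these number ranges batches, and the division was known from earlier work on these values, so it is described without a test. Dmd values were 9.12 to 9.39 in the first 3 of these arrays and 9.77 to 9.82 in the last 3. Dtna lay at 8.35 to 8.58 and 8.67 to 8.90, Sgcd at 7.95 to 8.07 and 8.26 to 8.32, and Utrn at 9.67 to 9.82 and 9.87 to 9.93. These 4 were higher in replicates 4 to 6 without overlap, as were 12.5% of all genes. Sgca went the other way, from 6.72 to 6.89 in replicates 1 to 3 to 6.59 to 6.68 in replicates 4 to 6, as did 15.3% of all genes, and Dag1, Sgcb and Sgce overlapped. The endothelial marker mean was 7.97 to 8.07 in replicates 1 to 3 and 7.26 to 7.30 in replicates 4 to 6, with Cdh5 at 10.87 to 11.04 and 10.03 to 10.06. The smooth muscle marker mean was 11.39 to 11.48 and 11.62 to 11.64. The part of either in these values was not tested.

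The differences between glucose levels were therefore also taken within each range of replicate numbers. For Dmd the difference was 1.76 within replicates 1 to 3 and 1.83 within replicates 4 to 6, for Dtna 1.30 and 1.44, and for Sgcd 0.55 and 0.76. With 0.3 g/l replicate 4 left out, the difference within replicates 4 to 6 was 2.30 for Dmd, 1.56 for Dtna and 0.97 for Sgcd. Sgca differed by 0.53 within replicates 1 to 3 and by 0.26 within replicates 4 to 6, or 0.34 there without 0.3 g/l replicate 4. Utrn showed the opposite order, with 0.13 and 0.31, or 0.29 in the latter without that array. Dag1 differed by 0.31 within replicates 1 to 3 and by 0.48 within replicates 4 to 6 without 0.3 g/l replicate 4. For Sgcb these values were 0.06 and -0.03. The sizes of the Dmd, Sgcd, Sgca, Utrn and Dag1 differences thus depended on the arrays used, as did the sign of the small Sgcb difference.

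**Figure D3:**
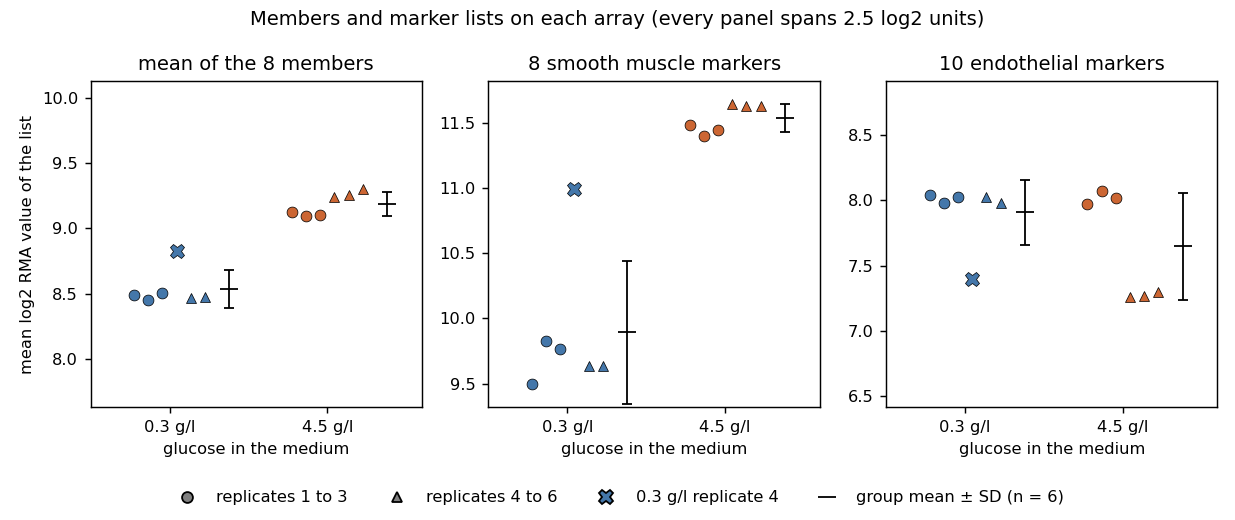
Mean log2 RMA value (vertical axis) over the 8 members, 8 smooth muscle markers and 10 endothelial markers on each array, by glucose level, with circles for replicates 1 to 3, triangles for replicates 4 to 6, a cross for 0.3 g/l replicate 4 and bars for group mean ± SD (n = 6). The endothelial mean is 7.26 to 7.30 in 4.5 g/l replicates 4 to 6 and 7.40 in 0.3 g/l replicate 4, below the 7.97 to 8.07 of the other arrays.

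For the 3 members with the largest differences, the genes with the most similar profile were sought among 17164 named genes, by the root mean square distance between log2 values over the 12 arrays after each gene was centred on its mean. Closest to Dmd were Susd5 (0.15), Xk, a membrane protein of red cells and muscle (0.15), and Mcam, an adhesion molecule of smooth muscle and endothelium (0.16), where the median gene stood 1.02 away. Closest to Dtna was Itga1, the alpha-1 integrin subunit of the collagen receptor, at 0.06, followed by Lancl3 (0.14) and the small heat shock protein Hspb1 (0.15), with a median distance of 0.73. Closest to Sgcd were Gpsm2, a spindle orientation protein (0.05), Frmd6 (0.08) and Plekhh2 (0.08), with a median of 0.41. Such likeness is to a pattern set mostly by the glucose groups.

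Other genes around the complex were taken from lists made by their known roles, though with some earlier results of these data known, and were tested. Of 66 genes in 5 lists, 58 were measured; the other 8 were not analysed here. In limma with Benjamini-Hochberg adjustment over all 22180 genes, 16 rose and 7 fell at an adjusted p of 0.05, or 19 and 10 without 0.3 g/l replicate 4, which kept all 16 and all 7 of those calls. Over all genes 7.01% rose and 8.52% fell, and 10.3% and 13.6% without that array. The median log2 difference of the 58 was 0.08.

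Of the other proteins of the complex, 1 of 10 rose and 0 fell in limma; at an unadjusted p of under 0.05 the counts were 2 and 0. Sarcospan, Sspn, a membrane protein bound to the sarcoglycans, rose from 7.28 ± 0.09 to 7.57 ± 0.08 (SD, n = 6; limma adjusted p = 0.00736), and its groups did not overlap. The syntrophins, adaptors that bind dystrophin and dystrobrevin, did not pass. Sntb1 differed by 0.29 ± 0.12 (log2 difference ± SE, limma adjusted p = 0.112) and Sntb2 by -0.11 ± 0.06 (limma adjusted p = 0.309). Beta-dystrobrevin, Dtnb, the relative of Dtna, differed by -0.15 ± 0.09 (limma adjusted p = 0.298). Zeta-sarcoglycan, Sgcz, with means of 4.56 and 4.47, lay close to the limit of the dimmest 25% of genes and differed by -0.08 ± 0.11 (limma adjusted p = 0.708). Neuronal nitric oxide synthase, Nos1, which syntrophin holds at the membrane, differed by -0.09 ± 0.11 (limma adjusted p = 0.676). The list's median log2 difference was -0.08, beside -0.01 over all genes.

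Among matrix ligands of dystroglycan, 3 laminin alpha chains fell and perlecan rose. Of 11 measured ligands, 3 fell and 1 rose (median log2 difference -0.02); without 0.3 g/l replicate 4, 4 fell and 3 rose, with Lama4 (log2 difference -0.92, limma adjusted p = 4.72e-05) added to the falls and Lamb1 (0.20, limma adjusted p = 0.0181) and Lamc1 (0.23, limma adjusted p = 0.0229) to the rises. Lama2, the laminin chain of muscle basement membrane whose loss causes a congenital muscular dystrophy, lay at 7.98 to 8.56 in 0.3 g/l and 7.53 to 7.81 in 4.5 g/l and fell 1.64-fold (limma adjusted p = 0.000336). Lama5 fell by 0.52 ± 0.13 on the log2 scale (SE, limma adjusted p = 0.0167) and Lama1 by 0.77 ± 0.22 (limma adjusted p = 0.0307). Perlecan, Hspg2, a basement membrane proteoglycan, rose by 0.29 ± 0.09 (limma adjusted p = 0.0379). In 0.3 g/l replicate 4, Lama1 lay at 4.91 against 6.19 to 6.48 in its group, and Lama5 at 9.30 against 9.89 to 10.06. The calls of Lama1 and Hspg2 were fragile: that of Lama1 was lost without any 1 of 0.3 g/l replicates 1, 2, 3, 5 and 6 or of 4.5 g/l replicates 2, 4, 5 and 6 (limma adjusted p at most 0.0726), and that of Hspg2 without 0.3 g/l replicates 1, 3, 5 or 6 or 4.5 g/l replicates 1, 4, 5 or 6 (limma adjusted p at most 0.0899), or with the replicate number as a block (limma adjusted p = 0.0610).

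Most enzymes that build the laminin-binding sugar chain on dystroglycan did not pass. Of 14 measured, 1 rose, 3 fell and 10 did not pass, with a median log2 difference of -0.02; without 0.3 g/l replicate 4 Pomt2 fell as well, by 0.20 (limma adjusted p = 0.0410). The glucuronyltransferase B4gat1, which primes the chain that binds laminin, rose by 0.32 ± 0.07 (SE, limma adjusted p = 0.00599). Rxylt1, which adds a xylose to the same chain, fell by 0.26 ± 0.06 (limma adjusted p = 0.00943). Dpm2, a subunit of the enzyme making the mannose donor, fell by 0.26 ± 0.07 (limma adjusted p = 0.0216), and Gmppb, which makes GDP-mannose, fell by 0.45 ± 0.13 (limma adjusted p = 0.0291). Dpm2 did not pass without 0.3 g/l replicate 2 (limma adjusted p = 0.0516), nor Gmppb without any 1 of 0.3 g/l replicates 1, 2, 3, 5 and 6 or of 4.5 g/l replicates 4, 5 and 6 (limma adjusted p at most 0.0689).

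Genes of caveolae, of the integrin link to the matrix and of membrane repair formed the list with the most calls. Of 14 measured, 10 rose and 0 fell in limma (11 and 0 at an unadjusted p of under 0.05, and 11 and 0 without 0.3 g/l replicate 4), with a median log2 difference of 0.59. Outside caveolae and the integrin link, Dysf rose by 0.36 ± 0.10 (SE, limma adjusted p = 0.0285) with overlapping groups, and Ano5 and Capn3 did not pass. Vinculin, Vcl, which links integrins to actin, rose from 11.07 ± 0.48 to 12.54 ± 0.07 (SD, n = 6), 2.76-fold (limma adjusted p = 0.000193), and talin, Tln1, its partner at the integrin tail, 1.61-fold (limma adjusted p = 0.000131). The caveolins Cav1 and Cav2, which shape membrane pits next to the complex in smooth muscle, rose 1.80-fold (limma adjusted p = 0.000731) and 1.71-fold (limma adjusted p = 7.66e-05). In 0.3 g/l replicate 4, Vcl lay at 12.04 against 10.75 to 11.01 in the other 5 arrays of its group, and Cav2 at 9.85 against 9.36 to 9.41. The smooth muscle marker mean moved the same way on that array, and its part was not tested.

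Filament and linker genes were divided. Of 9 measured, 3 rose and 1 fell (median log2 difference 0.11), or 3 and 2 without 0.3 g/l replicate 4, with Dtnbp1 added to the falls (log2 difference -0.34, limma adjusted p = 0.0192). The ankyrins are adaptors that hold membrane proteins to the cytoskeleton, and ankyrin-B and ankyrin-G are known to bind dystrophin in muscle. Ank2, which encodes ankyrin-B, fell from 8.20 ± 0.66 to 6.81 ± 0.14 (SD, n = 6), 2.63-fold (limma adjusted p = 0.00168), whereas Ank3, which encodes ankyrin-G, rose 1.51-fold (limma adjusted p = 0.00310). In 0.3 g/l replicate 4, Ank2 lay at 6.85, within the 6.63 to 6.95 of 4.5 g/l, and at 8.44 to 8.53 in the other 5; without that array its log2 difference was -1.67. The large linkers Dst and Macf1, which join actin to other filaments and to microtubules, rose by 0.41 ± 0.08 (SE, limma adjusted p = 0.00480) and 0.41 ± 0.10 (limma adjusted p = 0.0108). Lama4, Lamb1, Lamc1, Pomt2, Dtnbp1, Dysf, Ano5 and Capn3 were singled out after their values were seen.

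**Figure D4:**
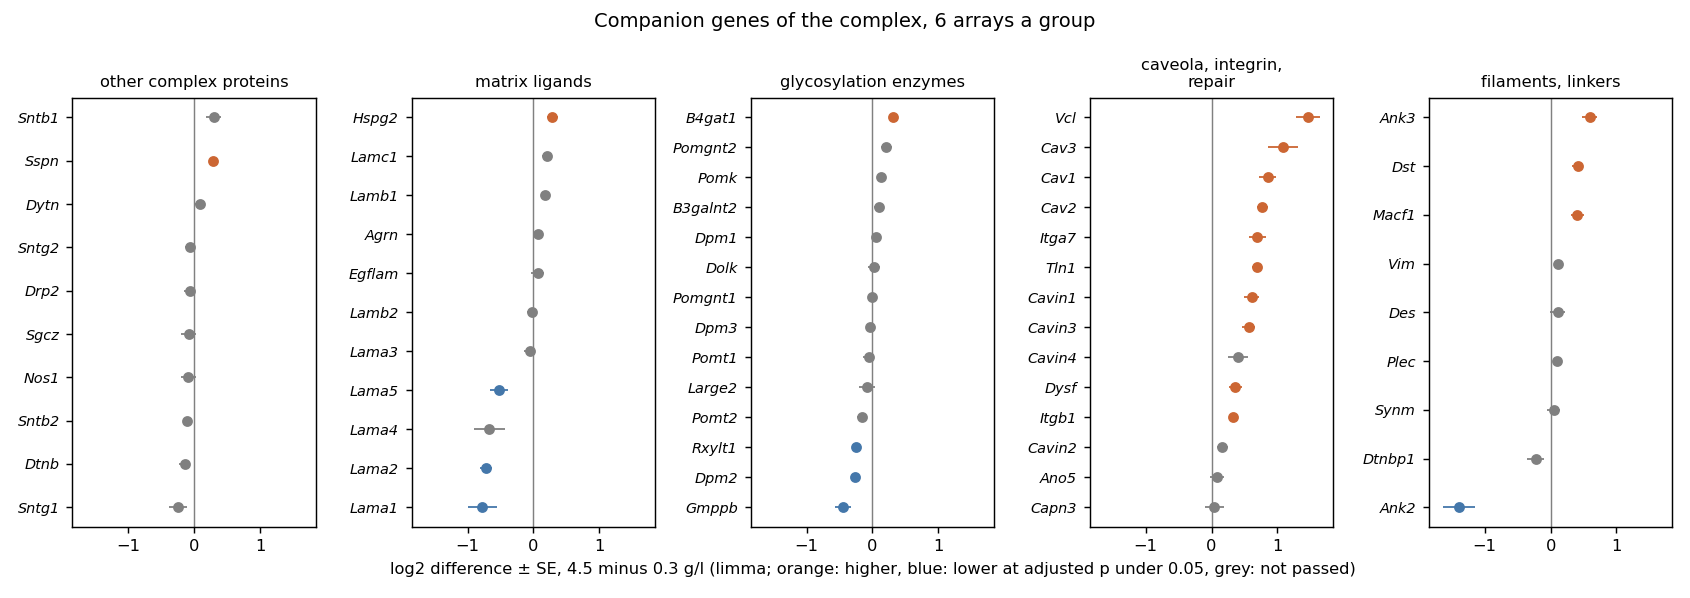
Log2 difference, 4.5 minus 0.3 g/l (horizontal axis), with its SE for the 58 measured companion genes in 5 lists, coloured by call in limma at an adjusted p of 0.05. Of the caveola and integrin list 10 of 14 rose, of the other complex proteins 1 of 10, and Ank2 shows the largest fall.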

How the data were processed

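RNA of 12 samples was measured on an Affymetrix whole-transcript mouse array. The authors deposited log2 values per probe set, made with Affymetrix Expression Console and RMA per the submitters' processing notes; RMA corrects background, normalizes arrays by quantiles and can compress differences of dim genes. Versions and a genome build are not given in the sources used here. Of 41345 probe sets, 23521 had 1 gene symbol in the platform annotation, 1814 had several, and 16010 were unnamed here. A gene was read from its probe set with the highest mean. Groups were those of the labels and were compared with limma 3.58.1 in R 4.3.3 (lmFit, eBayes, two-sided, Benjamini-Hochberg over 22180 genes, threshold 0.05), a fit also tested on simulated data. Members and lists were chosen with earlier results of these data known. Companion genes named were 6 measured complex proteins and, in each list, up to 4 changed genes with the smallest p. The number of arrays limits the precision (median SE of a log2 difference 0.0931). Alternatives covered variance model, low filter, scaling, probe sets, array weights, replicate block and arrays left out. Figures used matplotlib 3.10.9.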

Additional observations from a re-analysis of the deposited data

Results flagged for a closer look

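A value was picked out where the highest or lowest array of a group of 6 stood apart from its nearest neighbour by a share of the group's range above Dixon's critical value for 6 values. Of 72 groups examined, over members, named companion genes and marker lists, 15 met this, where chance gives about 1 in 20; in 14 of the 15 the array was 0.3 g/l replicate 4, and genes of 1 array are not independent. Among the members this array was high for Dmd (8.90), Sgcd (7.94) and Sgca (6.53). Among companion genes it was high for Vcl (12.04), Cav1 (11.35), Tln1 (10.51), Cav2 (9.85) and Ank3 (7.73), and low for Lama5 (9.30), Ank2 (6.85), Gmppb (6.25) and Lama1 (4.91). The smooth muscle marker mean was high on it (10.99) and the endothelial marker mean low (7.40). The remaining value was Dpm2, which was high in 0.3 g/l replicate 2 (7.26).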

How the results depend on the processing

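The median difference of the 8 members was 0.38 and lay between 0.37 and 0.48 in the 20 alternatives that can change it, the difference of group medians included. The other 4 (variance model, low filter, mean of probe sets and replicate block) cannot change a difference of group means here and say nothing about its stability. No member had a second probe set, so reading another one was not possible. Median centring, quantile normalization and cyclic loess moved the median of all genes by under 0.01. The count of companion genes that rose was 16 and lay between 12 and 20 in 22 of 23 alternatives; with replicates 4 to 6 only it was 0 in limma, and the count that fell was 0 too, although 16 and 5 of the 58 had an unadjusted p of under 0.05 there. That comparison holds 0.3 g/l replicate 4 among 3 arrays, and without it 16 rose and 6 fell. With 1 array left out at a time, 14 to 19 rose and 4 to 10 fell, against 7 in the full comparison, the 4 being without 0.3 g/l replicate 2. The members' median lay between 0.37 and 0.42 in those fits. Deviations of same-numbered arrays correlated by -0.05 to 0.17, and not every pair was above 0.1, so the numbers were not taken to pair the samples; with the replicate block 15 companion genes rose and 8 fell. Sntb1 passed with array weights alone (log2 difference 0.32, limma adjusted p = 0.0478). With replicates 1 to 3 only, Sspn, Hspg2, Rxylt1, Dpm2 and Macf1 no longer passed, in a comparison of fewer arrays. With 6 arrays a group, differences of the size of Sgcb's cannot be resolved.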
